A study of Mus musculus with 6 samples.

Results

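The remote intergenic intervals are the accessible regions of mouse muscle nuclei that lie farthest from any known gene start. They were taken as the autosomal intervals of the deposited ATAC-seq count table that overlap no gene of the GENCODE vM1 annotation of mm9 and whose nearest edge is more than 50 kb from the nearest annotated transcription start site (TSS). Of the 39768 intervals in the table, 2061 (5.18%) met this rule. No measured value entered the rule. The interval just inside it, Peak_21966, lies 50.009 kb from the TSS of Hdac2, and the one just outside, Peak_28084, lies 49.961 kb from that of Rpl30-ps8.

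In ATAC-seq the transposase Tn5 cuts exposed DNA, and the count of fragment ends in an interval measures how accessible it is. There were 3 CTL libraries, titled WT, and 3 labelled H2A.Z dKO, called dKO-labelled below, each made from 50000 nuclei of C57BL/6 mice (backcrossed to C57BL/6N, per the methods) aged 7 weeks. By the genotype labels both groups carry floxed alleles of H2A.Z-1 (H2afz) and H2A.Z-2 (H2afv), and the H2A.Z dKO group also carries the HSA-Cre transgene, whose skeletal actin promoter is active in muscle fibres, so that nuclei of other cells in the muscle keep both genes. The question was whether loss of H2A.Z changes accessibility. The labels name tibialis anterior muscle and ultracentrifuged nuclei, whereas the methods describe hind limb muscles and a Dounce homogenizer. The sources do not say whether the libraries of a group came from separate mice, so p-values measure the spread between libraries, which may be technical.

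Accessible DNA far from genes often belongs to enhancers, which bind transcription factors and can act on promoters over long distances, or to sites of CTCF, a zinc finger protein that sets the borders of chromatin loops. H2A.Z is a variant of histone H2A found in nucleosomes beside active promoters, enhancers and CTCF sites. In muscle, the myogenic factors bind E-boxes such as CAGCTG, and MEF2 proteins bind an AT-rich element. A nearest gene is given below as a position only, since the gene that an interval acts on is not measured by ATAC-seq.

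The sequences that the results turn on are the CTCF, MEF2, E-box and AP-1 matches in the remote intervals with the highest counts, a CpG-rich interval, and the remote interval with the highest count. All come from mm9, are written 5′ to 3′ on the strand given, and have the match in capitals. The first 3 hold the CTCF core in the remote intervals with the highest mean CPM (counts scaled to the library's total in all intervals) among those with a match.
Peak_31422, chr14:120537243-120537302, + strand: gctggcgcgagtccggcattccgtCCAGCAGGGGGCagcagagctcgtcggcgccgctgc
Peak_32831, chr15:96767379-96767438, - strand: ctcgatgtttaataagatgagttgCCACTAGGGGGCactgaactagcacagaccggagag
Peak_36346, chr17:84513415-84513474, + strand: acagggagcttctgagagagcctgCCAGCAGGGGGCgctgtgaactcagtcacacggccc
In the next, the stretch from the start of Peak_34458 to the end of Peak_34459, a CTCF core lies in the gap between a pair of remote intervals.
Peak_34458 and Peak_34459, chr16:95563039-95563284, + strand: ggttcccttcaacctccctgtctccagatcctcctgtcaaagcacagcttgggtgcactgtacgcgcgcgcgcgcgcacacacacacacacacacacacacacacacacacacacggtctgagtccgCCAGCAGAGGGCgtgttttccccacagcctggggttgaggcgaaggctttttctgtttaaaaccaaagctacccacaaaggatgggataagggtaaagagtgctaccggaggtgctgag
The MEF2 element is shown in Peak_25515 and Peak_19286, the E-box CAGCTG in Peak_32663 and Peak_33601, and the AP-1 element TGANTCA in Peak_19291 and Peak_27568.
Peak_25515, chr11:86734043-86734100, + strand: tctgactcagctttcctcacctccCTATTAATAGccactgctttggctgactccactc
Peak_19286, chr8:129283761-129283818, + strand: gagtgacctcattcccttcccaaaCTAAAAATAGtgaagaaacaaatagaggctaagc
Peak_32663, chr15:85465141-85465194, + strand: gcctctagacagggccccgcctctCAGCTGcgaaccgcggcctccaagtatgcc
Peak_33601, chr16:24238315-24238368, + strand: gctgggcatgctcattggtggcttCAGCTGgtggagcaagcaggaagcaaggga
Peak_19291, chr8:129363621-129363675, + strand: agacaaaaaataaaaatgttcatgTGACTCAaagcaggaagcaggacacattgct
Peak_27568, chr12:71699507-71699561, + strand: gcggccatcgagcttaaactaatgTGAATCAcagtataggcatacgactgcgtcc
The centre of Peak_32090 is shown with its CpG dinucleotides in capitals, as an example of a remote interval with promoter-like base composition.
Peak_32090, chr15:67008373-67008573, + strand: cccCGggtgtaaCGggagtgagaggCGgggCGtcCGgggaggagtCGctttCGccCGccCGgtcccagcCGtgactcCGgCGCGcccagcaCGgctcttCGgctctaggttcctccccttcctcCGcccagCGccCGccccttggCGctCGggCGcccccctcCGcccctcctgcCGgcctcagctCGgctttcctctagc
The whole of Peak_10509 is shown with the bases that 31-base words share with the mitochondrial genome in capitals.
Peak_10509, chr5:60434070-60434329, + strand: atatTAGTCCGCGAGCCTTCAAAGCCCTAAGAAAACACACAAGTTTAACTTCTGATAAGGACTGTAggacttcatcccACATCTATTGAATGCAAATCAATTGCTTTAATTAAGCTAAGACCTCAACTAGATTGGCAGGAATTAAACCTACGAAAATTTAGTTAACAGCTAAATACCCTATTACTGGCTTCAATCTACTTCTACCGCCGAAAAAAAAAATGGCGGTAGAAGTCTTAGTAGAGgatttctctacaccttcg
The intervals with the smallest p in either direction between the groups, Peak_26500 and Peak_31360, are short.
Peak_26500, chr11:114369155-114369187, + strand: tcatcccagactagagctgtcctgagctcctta
Peak_31360, chr14:104426545-104426574, + strand: taaagctttggcttgtttattctgagaaca

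The libraries held 3520008 to 6117245 counts in all intervals. In the floxed segment of H2afz, exons 2 to 4, a pair of intervals of 13 and 21 bp summed to 79, 69 and 33 counts in CTL replicates 1, 2 and 3 and to 57, 52 and 64 in the dKO-labelled libraries, or 12.4 ± 2.80 and 11.3 ± 1.52 CPM (SD, n = 3; two-sided exact permutation p = 0.6, with 0.1 the smallest p that this design allows). The deletion was therefore not detectable in these counts. They cannot show whether it took place, since the intervals are short and the nuclei include cells that keep both genes. No interval lies in exons 4 to 5 of H2afv, and the group is called by its label throughout. The paper reports depletion of H2A.Z RNA and protein in muscle of these mice, and those assays were not analysed here. Promoter intervals were present for 8 of 12 muscle fibre markers, 5 of 8 endothelial, 4 of 8 fibroblast and 4 of 8 satellite cell markers, and for none of 6 annotated macrophage and 6 neuron and Schwann cell markers. The summed endothelial promoter intervals were 71.1 to 82.1 CPM in CTL and 57.4 to 64.2 CPM in the dKO-labelled libraries, so that the groups did not overlap. Those of the muscle fibre (360 to 487 against 366 to 510 CPM), fibroblast (73.4 to 86.8 against 81.7 to 86.8 CPM) and satellite cell markers (157 to 183 against 174 to 198 CPM) overlapped. Scaled levels of single intervals do not overlap between the groups in 10.8% of all, and no such share was computed for sums. The 3 remote intervals nearest to the endothelial gene Cdh5 went the other way, with a median log2 fold change of 0.26. The part of these cell types in the results below was not tested. H2A.Z dKO replicate 1 stood apart from the other libraries, as described with the class means.

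Remote intervals were less accessible than those nearer to genes. Their median RPKM, the counts scaled by interval width and by the library's total in all intervals, was 87.2, 91.0 and 89.3 in CTL replicates 1, 2 and 3 and 79.1, 97.8 and 95.8 in the dKO-labelled libraries. In intergenic intervals 1 to 20 kb from a TSS, called near intergenic here, it was 107, 106 and 107 in CTL and 94.2, 113 and 112 in the other group. In each of the 6 libraries the remote median was below the near one, and the groups overlapped in both classes. The mean log2 ratio of the medians, remote over near, was -0.24 ± 0.03 (SD, n = 6 libraries, range -0.30 to -0.21), a 1.18-fold lower level (exact sign-flip test, two-sided p = 0.031, the smallest that 6 libraries can give, 0.034 after Benjamini-Hochberg adjustment over 11 such tests). Against promoter intervals, with the midpoint within 1 kb of a TSS, the ratio was -0.56 ± 0.13 (SD, n = 6), or 1.48-fold lower (exact sign-flip test, p = 0.031). Within the remote class the median RPKM fell little with distance. It was 92.8 from 50 to 100 kb, 90.2 from 100 to 250 kb, 81.2 from 250 to 500 kb and 83.2 in the 16 intervals beyond 500 kb, and the ratio above against below 100 kb, -0.04 on the log2 scale, did not pass the test (exact sign-flip test, p = 0.0625).

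**Figure D1:**
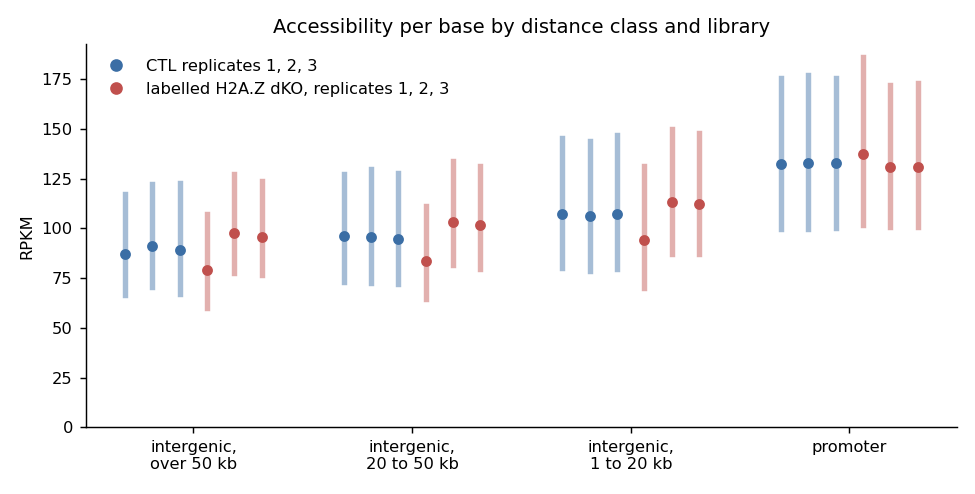
RPKM (vertical axis, from 0) of intervals in 4 position classes, with a point for the median and a bar for the quartiles of each library. The remote medians lie between 79.1 and 97.8, below the medians of the near intergenic class in every library.

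In all, remote intervals held 2.55%, 2.59% and 2.59% of the counts in CTL replicates 1, 2 and 3 and 2.32%, 2.77% and 2.73% in the dKO-labelled libraries. The labelled dKO libraries lie on both sides of the CTL values. The means, 2.58% ± 0.0231 and 2.61% ± 0.247 (SD, n = 3), differed by 0.0286 percentage points (exact permutation test, two-sided p = 1). A median remote interval was 91 bp wide (9 to 723) and 826 of them were narrower than 73 bp, the length over which the authors' wide peak model spreads each fragment end. A median of 36.3 counts fell in it per CTL library, against 108 in a promoter interval, so single remote intervals are measured with less precision.

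By distance, 1165 remote intervals lay 50 to 100 kb from the nearest TSS, 765 from 100 to 250 kb, 115 from 250 to 500 kb and 16 farther away. The median was 89.4 kb to any TSS and 110 kb to that of a protein-coding gene. The nearest TSS belonged to a protein-coding gene for 1338 intervals, to a small nuclear RNA for 118, to a small nucleolar RNA for 111 and to a microRNA for 108. Chromosome 13 held the most per length, 194 intervals or 1.61 per Mb, and chromosome 11 the fewest, 29 or 0.238 per Mb. The farthest, Peak_7090, is 9 bp wide and lies 788 kb downstream of the TSS of Pdha2, with 7, 9 and 11 CTL counts against 9, 9 and 8 in the other group. Peak_37153, 765 kb from a U1 gene, and Peak_17491, 746 kb from Unc5d, follow it, and the window around Peak_37153 consists of words found a median of 26210 times in the genome.

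Remote intervals often came in groups. With consecutive intervals at most 10 kb apart joined, the 2061 intervals formed 1260 groups, of which 773 held 1 interval and 487 held 2 to 9. The table keeps overlapping intervals apart, 332 remote intervals overlap another, and fragment ends in a shared part count in each, so intervals of a group are not independent. The gene with the most remote intervals was Irf2bp2, which encodes a transcriptional corepressor. Its 19 intervals lie 66.7 to 166 kb upstream on chromosome 8 and summed to 604, 580 and 529 CPM in CTL and 584, 637 and 569 CPM in the dKO-labelled libraries. The groups overlap in these sums. Tle3, another corepressor, had 12 intervals from 108 to 246 kb. Pkdcc, Sec61b and Serp2 also had 12 each, and Klf6, a zinc finger transcription factor, had 11.

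**Figure D2:**
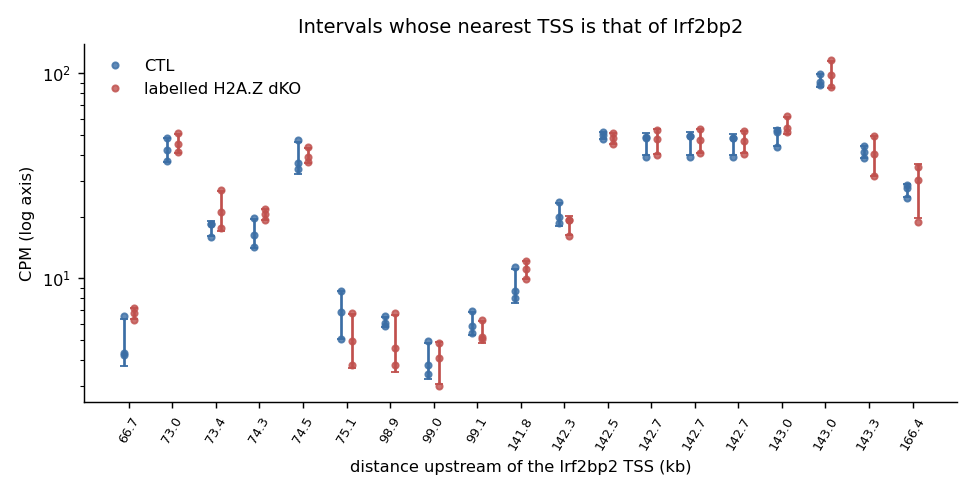
CPM (log axis) of the 19 remote intervals nearest to Irf2bp2, ordered by distance upstream of its TSS in kb, with a point per library and bars of ± 1 SD around the mean of 3. The most accessible interval lies 143 kb upstream, and the points of both groups overlap in most intervals.

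The 4 largest groups held 8 or 9 intervals each. That of Irf2bp2, chr8:129259144-129260828, has 9 intervals in 1.69 kb, and its summed level was 400 ± 29.3 CPM in CTL and 414 ± 30.9 CPM in the dKO-labelled libraries (SD, n = 3). The 9 intervals of chr17:88651421-88656822, 183 to 187 kb from Foxn2 and closer to a U6 gene, summed to 124 ± 2.35 and 113 ± 8.85 CPM. The 8 of chr4:47600215-47617248 near Sec61b, a subunit of the protein translocation channel, summed to 117 ± 7.60 and 131 ± 5.60 CPM, and the 8 of chr6:51113376-51128777 near Mir148a to 107 ± 6.07 and 121 ± 3.67 CPM. The libraries of both groups overlap in the first 2 of these sums and not in those near Sec61b and Mir148a. Single intervals, after scaling, do not overlap in 10.8% of all, and no such share was computed for sums. All 8 intervals of the last group had a positive log2 fold change, from 0.02 to 0.92, against 52.5% of all intervals above 0. None had an edgeR adjusted p under 0.97. The 8 are neighbours at a single locus and not independent observations.

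The DNA of remote intervals was poor in CpG. In the window of 100 bp on either side of the midpoint the median GC content was 51.2% and the median observed over expected CpG 0.240, against 65.2% and 0.800 in promoter intervals and 53.7% and 0.314 in near intergenic ones. CpG-rich windows, with GC above 50% and a ratio above 0.6, made up 102 remote intervals (4.95%), 15.4% of the near and 73.1% of the promoter intervals. These 102 were more accessible than the other remote intervals in every library, by 0.18 on average in log2 median RPKM (range 0.11 to 0.26; exact sign-flip test, p = 0.031).

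Motif matches were counted on both strands of the same window. Compared with promoter intervals, remote intervals more often held CAGCTG (24.2% against 12.0%), TGANTCA (15.4% against 3.36%), GGAATG, the element of TEAD factors (13.9% against 7.01%), and the MEF2 element (1.70% against 0.567%). They less often held GGGCGG, the GC box (7.38% against 57.0%). Near intergenic intervals had 21.8%, 10.3%, 11.5%, 1.503% and 17.1% for these 5 motifs in the same order. All intervals had 17.6%, 7.52%, 9.84%, 1.30% and 35.9%. Intergenic intervals 20 to 50 kb from a TSS had 22.5%, 12.7%, 12.8%, 2.43% and 12.8%. The MEF2 share was therefore higher in that class than in remote intervals. CCAAT was found in 22.0% of remote, 22.1% of near and 24.2% of promoter intervals, and within 50 bp of the midpoint in 10.9%, 11.6% and 15.8%. TGACCT was found in 16.1%, GGAAGT in 14.2%, CACGTG in 2.86% and AAACCACA in 1.65% of remote intervals, against 11.8%, 16.3%, 5.39% and 1.02% of all. These shares are descriptions, a match is not a bound site, and base composition differs between the classes.

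**Figure D3:**
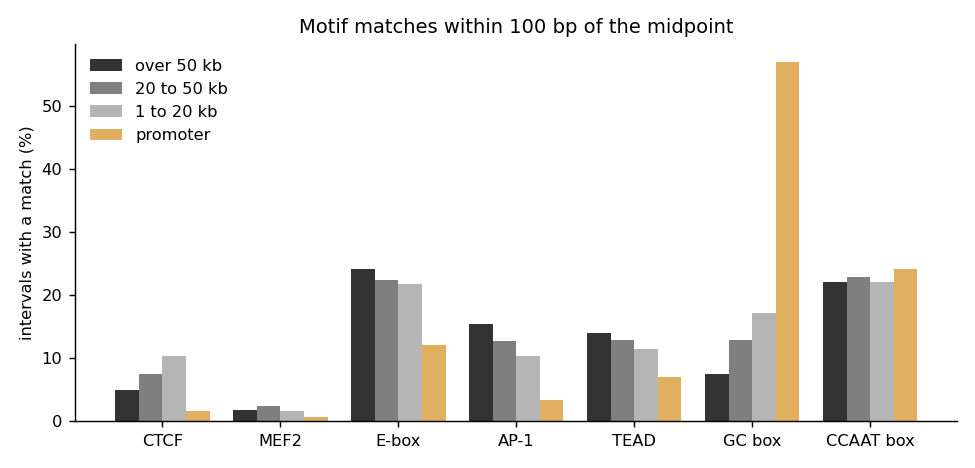
Share of intervals (%) with a match within 100 bp of the midpoint, for 7 motifs and 4 position classes. Among these 4 classes, E-box, AP-1 and TEAD matches are highest in the remote one. The GC box is highest in promoters, at 57.0% against 7.38%. Genic intervals are not drawn.

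The CTCF core was found at 102 remote intervals (4.95%), 10.3% of near intergenic, 1.54% of promoter and 4.51% of all intervals. Its share in intergenic intervals 20 to 50 kb from a TSS was 7.43%. In remote intervals the CTCF core lay beside the intervals rather than in them. Of the 102 intervals 11 (10.8%) contained the match, which lay a median of 46 bp from the midpoint (quartiles 39 and 57.4). CAGCTG was contained in 311 of 498 intervals (62.4%) and TGANTCA in 186 of 318 (58.5%). Intervals with the CTCF core were narrow, with a median of 40.5 bp, so widths have to be matched. Among intervals narrower than 73 bp, the CTCF core was inside 0 of 76, CAGCTG inside 23 of 152 (15.1%) and TGANTCA inside 17 of 105 (16.2%). Near intergenic intervals of that width had 4 of 350 (1.14%), 63 of 352 (17.9%) and 21 of 171 (12.3%).

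The 102 intervals with a CTCF core shared 77 sites, 23 of these were nearest to more than 1 remote interval, and 22 had the midpoints of such intervals on both sides. In 21 pairs a gap separated the intervals, with a median of 53 bp, and in 20 the match lay wholly in it, while the intervals of the remaining pair, Peak_31522 and Peak_31523, overlap. The pair with the highest counts is the one printed above, with the match in the gap between Peak_34458 and Peak_34459. In it Peak_34458 had 72, 41 and 47 CTL counts against 82, 59 and 66 in the dKO-labelled libraries, and Peak_34459 had 76, 56 and 42 against 82, 55 and 57. Scaled for library size the log2 fold changes were 0.25 (SE 0.21) and 0.04 (SE 0.20), with edgeR adjusted p of 0.9754 and 0.998. As a class, intervals with a CTCF core deviated by -0.03, 0.04 and 0.06 on the log2 CPM scale from the mean of 6 libraries in CTL, and by -0.20, 0.05 and 0.08 in the dKO-labelled libraries. Relative to the other remote intervals, the difference between the groups was -0.07 (exact permutation test, two-sided p = 0.2). In median RPKM the groups did not overlap. The log2 ratio to the other remote intervals was 0.18, 0.24 and 0.29 in CTL and 0.11, 0.08 and 0.15 in the dKO-labelled libraries. The difference of -0.12 had p = 0.1 (exact permutation test), the smallest this design allows. In median CPM the ratio overlapped between the groups (difference -0.02, exact permutation test, p = 0.6). The median log2 fold change of the 102 intervals was -0.02.

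Levels in CPM are not scaled by width, and after Peak_10509, described with the repeated DNA, the highest belonged to wide intervals. Peak_32663, chr15:85464817-85465539, 52.6 kb upstream of the TSS of the signalling gene Wnt7b, was the widest at 723 bp. Its level was 221, 219 and 246 CPM in CTL and 192, 202 and 203 CPM in the dKO-labelled libraries, so that the groups did not overlap. The log2 fold change was -0.20 (SE 0.09, edgeR unadjusted p = 0.0423, adjusted p = 0.972). Peak_32090, 62.3 kb from the sialyltransferase gene St3gal1, had 148, 152 and 146 CPM in CTL and 171, 144 and 147 CPM in the other group, a log2 fold change of 0.05 (SE 0.10). Peak_36582 near Arhgap12 was at 147 ± 3.99 and 147 ± 5.33 CPM, Peak_27247 near Myt1l at 118 ± 4.56 and 113 ± 17.6 CPM, and Peak_33483 near Sept5 at 116 ± 7.83 and 113 ± 7.68 CPM (SD, n = 3). These 4 overlapped between the groups, with log2 fold changes from -0.07 to 0.05. Per base, and among the intervals of at least 73 bp, Peak_33221 (523 RPKM, 99 bp), Peak_13599 (504.2 RPKM, 134 bp) and Peak_10749 (473 RPKM, 87 bp) followed Peak_10509, all with GC content under 45%. They lie partly in repeated DNA, since 57.9%, 43.9% and 69.0% of their 31-base words are unique in mm9, and the median word of Peak_13599 occurs 11 times.

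Some remote intervals carry repeated DNA. In 1829 every 31-base word was unique in mm9, whereas in 81 (3.93%) the median word occurred more than once. The highest count of all was in Peak_10509, chr5:60434070-60434329, of whose 260 bases 226 (86.9%) lie in words shared with bases 4967 to 5205 of the mitochondrial genome, a stretch of transfer RNA genes (mt-Tw, mt-Ta, mt-Tn and mt-Tc). It had 357, 343 and 606 CPM in CTL and 137, 400 and 430 CPM in the dKO-labelled libraries, with CTL replicate 3 highest and H2A.Z dKO replicate 1 lowest. The groups overlap, and the log2 fold change was -0.44 (SE 0.52, edgeR adjusted p = 0.988). With single libraries left out the log2 fold change was -0.72 to -0.077. The authors removed mitochondrial peaks, and how reads with several positions were placed is not given in the sources used here. The 81 intervals held 0.118%, 0.121% and 0.183% of the counts in CTL and 0.104%, 0.136% and 0.129% in the other group. Of them 43 (53.1%) were listed by the authors for both groups, against 22.0% of the 1980 others.

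No remote interval passed the threshold between the groups. edgeR's quasi-likelihood test, fitted on all 39768 intervals, called 0 remote intervals at an adjusted p under 0.05, where the background over all intervals is 0%, and the smallest adjusted p was 0.615. DESeq2 also called 0. At an unadjusted p under 0.05 there were 156 remote intervals (7.57%), against 4.95% of all intervals, and DESeq2 gave 55 (2.67%), against 1.90% of all. Of the 156, 81 (3.93%) were higher and 75 (3.64%) lower in the dKO-labelled libraries, against 2.64% and 2.31% of all. The authors list 76 of the 81 for H2A.Z dKO alone and 57 of the 75 for CTL alone. Over all intervals these counts were 889 of 1051 and 553 of 919. Such intervals entered the table through the group in which they were higher. Among remote intervals listed for both groups, 15 (3.14%) had such a p, against 2.84% of all intervals so listed. Scaled levels of the groups did not overlap in 239 remote intervals (11.6%), against 10.8% of all. The median log2 fold change was 0.03 in remote, 0.01 in promoter and 0.01 in all intervals, and 1131 remote values (54.9%) were above 0, against 52.5% of all.

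The precision was lower than elsewhere. The median SE of the log2 fold change was 0.25 in remote, 0.18 in promoter and 0.21 in all intervals. Confidence intervals (95%) stayed inside a 2-fold change in either direction in 1721 remote intervals (83.5%) and 91.4% of all, and within 1.5-fold in 588 (28.5%) and 49.6%. A fitted change of 2-fold or more was found in 16 remote intervals (0.776%), against 0.357% of all. Of these 9 were higher and 7 lower, with a median of 12.4 counts per library. All 9 higher ones are listed by the authors for H2A.Z dKO alone, and 6 of the 7 lower ones for CTL alone. The authors list 1141 remote intervals for H2A.Z dKO alone (55.4%), 442 for CTL alone (21.4%) and 478 for both (23.2%), against 43.4%, 17.9% and 38.7% of all intervals. The median log2 fold change was 0.13, -0.22 and -0.04 in these sets, which were defined on the same libraries and are no separate evidence.

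**Figure D4:**
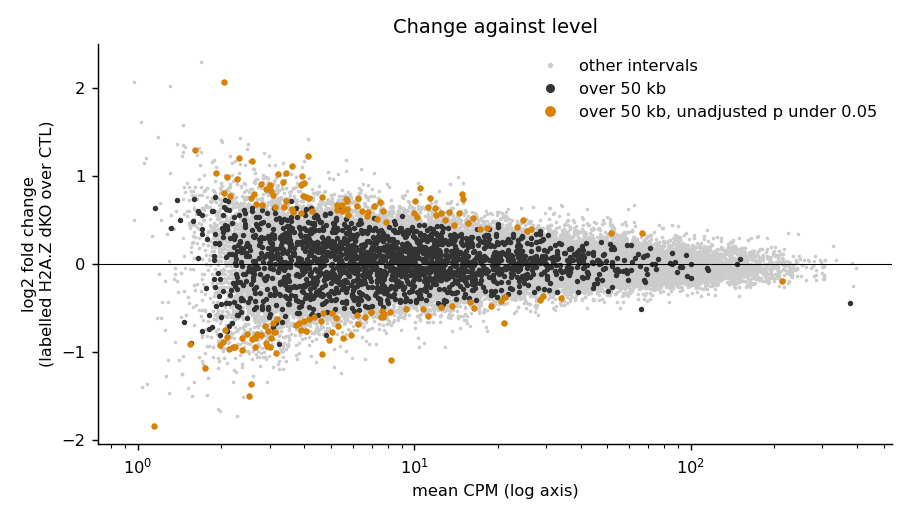
Log2 fold change of the dKO-labelled libraries over CTL (vertical axis) against mean CPM (log axis), a point per interval. Remote intervals are black, and orange for the 156 with an unadjusted p under 0.05, of which none passed the adjusted threshold.

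Of the 6 intervals with the smallest p, 3 in either direction, 3 were low in counts (Peak_26500, Peak_31360 and Peak_871) and 3 lay above the remote median of 38.3 counts per library. Peak_26500, 59.0 kb from 4932435O22Rik, had 5, 4 and 2 CTL counts against 14, 15 and 22 in the dKO-labelled libraries, and its log2 fold change was 2.07 (SE 0.40, edgeR adjusted p = 0.615). Peak_30408, 84.0 kb from Il17rd, a modulator of fibroblast growth factor signalling, had 45, 30 and 30 against 70, 74 and 63 counts (0.87, SE 0.22, adjusted p = 0.972). Peak_36570, 107 kb from Zfp438, had 63, 52 and 43 against 113, 75 and 102 (0.74, SE 0.20, adjusted p = 0.972). In the other direction, Peak_31360, 183 kb from the endothelin receptor gene Ednrb, had 25, 14 and 14 against 5, 7 and 8 counts (-1.497, SE 0.34, adjusted p = 0.855). Peak_21551, 52.1 kb from the kinase gene Snrk, had 146, 132 and 89 against 88, 82 and 80 (-0.67, SE 0.18, adjusted p = 0.972), and Peak_871, 193 kb from Gm5530, 16, 16 and 18 against 5, 7 and 9 (-1.36, SE 0.36, adjusted p = 0.972). The groups of all 6 did not overlap after scaling, and the rule chose them for their p. Peak_21551 is listed by the authors for both groups, and the others only for the group in which they were higher.

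Some remote intervals lay next to genes of the muscle and cell type lists, and the share for genes in general was not computed. Of 39 muscle regulators, 9 were nearest to 19 remote intervals, and of the fibroblast markers 3 (Dcn, Col3a1 and Fbn1) were nearest to 11. The endothelial cadherin gene Cdh5 was nearest to 3 intervals, 2 of 20 limb patterning genes to 2 intervals, and the muscle fibre, macrophage, satellite cell and neuron and Schwann cell markers to none. By the nearest protein-coding TSS, 12 muscle regulators had 27 intervals, 4 limb patterning genes had 7 and 2 endothelial markers had 4. None passed the adjusted threshold. At an unadjusted p under 0.05, 1 interval of the muscle regulators was higher and 1 lower, and 1 of the fibroblast markers was higher, that is 2 of 19 and 1 of 11, where 2.64% of all intervals were higher and 2.31% lower. The median log2 fold change was 0.07 in the 19 and 0.26 in the 11, with 13 and 10 values above 0. Over all intervals the median was 0.01 and 52.5% were above 0. The 19 lie near 9 genes and the 11 near 3. Intervals near the same gene are not independent, so the numbers above 0 are descriptions and no test.

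Dcn, which encodes the matrix proteoglycan decorin, had 7 of these intervals. Peak_23222, 166 kb upstream, was at 29.1, 22.7 and 25.9 CPM in CTL and 27.9, 30.99 and 34.9 CPM in the dKO-labelled libraries (log2 fold change 0.26, SE 0.16, edgeR adjusted p = 0.972). Peak_23220 and Peak_23221, which overlap each other, were at 25.1 ± 2.55 and 16.9 ± 1.31 CPM in CTL and at 27.8 ± 1.58 and 19.98 ± 2.68 CPM in the other group. Peak_18535, 78.6 kb upstream of Cdh5, had 80, 89 and 53 CTL counts against 121, 94 and 76 in the dKO-labelled libraries (0.26, SE 0.21). In all of these the groups overlap.

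Among the muscle regulators, Peak_15551, 89.1 kb upstream of Mef2a, was at 12.3, 12.5 and 10.8 CPM in CTL and 12.1, 15.8 and 17.3 CPM in the dKO-labelled libraries (log2 fold change 0.33, SE 0.20, edgeR adjusted p = 0.972). Peak_34397, 127 kb upstream of Runx1, was at 12.5 ± 1.504 and 12.9 ± 3.55 CPM (SD, n = 3). The groups overlap in both. Upstream of the myogenic factor gene Myod1, Peak_15356 (60.6 kb) had 64, 30 and 34 CTL counts against 48, 57 and 64 in the other group, and Peak_15357 had 37, 18 and 23 against 28, 30 and 40. The lowest unadjusted p belonged to Peak_5843, 71.8 kb upstream of Foxo1, with 38, 33 and 20 against 16, 17 and 24 counts (-0.78, SE 0.26), and Peak_16414, 371 kb from Sox6, with 7, 4 and 10 against 15, 14 and 16 (0.97, SE 0.38). Both had an edgeR adjusted p of 0.972.

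Among the dKO-labelled libraries, remote intervals were lowest in replicate 1. Mean deviations of log2 CPM from the 6-library mean were -0.04, 0.01 and -0.00 for remote intervals in CTL replicates 1, 2 and 3, and -0.12, 0.09 and 0.06 in the dKO-labelled libraries. Genic intervals (-0.14) and intergenic ones 20 to 50 kb from a TSS (-0.12) were as low in H2A.Z dKO replicate 1, so that the low value is not particular to remote intervals. Promoter intervals were at 0.08 there, whereas replicates 2 and 3 had promoters at -0.03 and -0.04. Remote minus promoter intervals differed between the groups by 0.01 (exact permutation test, two-sided p = 1) and remote minus near intergenic intervals by 0.02 (p = 0.6, exact). CpG-poor remote intervals deviated by -0.04, 0.01 and -0.00 in CTL and by -0.13, 0.09 and 0.07 in the dKO-labelled libraries, and the 102 CpG-rich ones by -0.03, 0.03 and -0.02 and by -0.05, 0.05 and 0.02. CpG-poor near intergenic intervals deviated by 0.00, -0.02 and 0.00 in CTL and by -0.12, 0.08 and 0.06 in the other group, so that their signs match those of the remote intervals in the dKO-labelled libraries and not in CTL. Without H2A.Z dKO replicate 1, 232 remote intervals (11.3%) had an unadjusted p under 0.05, against 7.95% of all. Of these 171 (8.30%) were higher and 61 (2.96%) lower in the dKO-labelled libraries, against 4.24% and 3.71% of all, the median log2 fold change was 0.09, and 0 were called (smallest adjusted p = 0.143). Without replicate 2 there were 56 higher and 75 lower (2.72% and 3.64%, against 2.75% and 2.63% of all), and without replicate 3 there were 54 and 93 (2.62% and 4.51%, against 2.73% and 2.87%), so that the direction of the larger share depends on which library is left out. The part of replicate 1's differences in these counts cannot be told apart from an effect of the genotype with 2 libraries left.

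**Figure D5:**
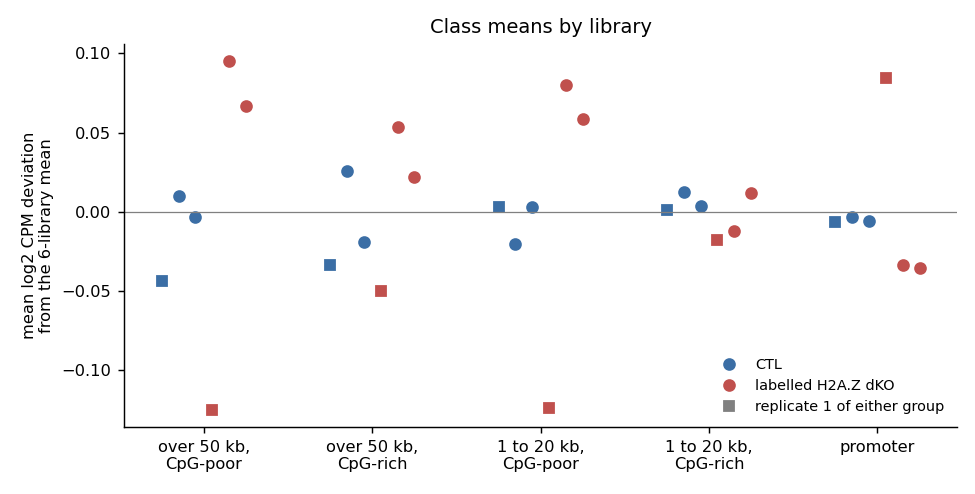
Mean deviation of log2 CPM from the 6-library mean (vertical axis) for remote and near intergenic intervals, split by CpG content, and for promoters, with a point per library and squares for replicate 1. H2A.Z dKO replicate 1 lies at -0.13 in CpG-poor remote intervals and at 0.08 in promoters.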

How the data were processed

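Accessibility was measured by ATAC-seq in 3 CTL libraries and 3 libraries labelled H2A.Z dKO. The authors trimmed adapters, aligned pairs to mm9 with Bowtie, removed duplicates, shifted fragment ends for Tn5, called peaks with MACS2, merged peaks of both groups and deposited counts of fragment ends per interval without normalization. The methods describe more merged intervals than the deposited table holds, and the table keeps many overlapping intervals apart, so its merge does not match that description exactly. The deposited table also holds the authors' log2 fold change, Wald score, p-value and other DESeq2 columns, which were not used. All 6 count columns were matched to samples by name, and 0 were left unused. Starts are printed 1-based, as the deposited start plus 1.

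Groups and replicate numbers come from the labels. Intervals were annotated with GENCODE vM1 on mm9. edgeR 4.0.16 (R 4.3.3; TMM, robust quasi-likelihood, no filter, no block) was fitted on all intervals, with Benjamini-Hochberg adjustment and a threshold of 0.05, and was tested on simulated data. DESeq2 1.42.0 was an alternative. Class means used a pseudocount of 0.5 CPM, and class values were compared between groups by exact permutation and within libraries by exact sign-flip tests, both two-sided. Words of 31 bases were counted in the genome with Python 3.11.15. Counting error and the spread of 3 libraries limit the precision. Named intervals are those highest in CPM or RPKM, smallest in p, farthest, widest, next to the 50 kb limit, in the largest groups or nearest to listed genes, of which 2 intervals are not reported here. CTCF pairs, motif examples and the Myod1, Foxo1 and Sox6 intervals were chosen after their values were seen. The members and lists were chosen with earlier results of these data known.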

Additional observations from a re-analysis of the deposited data

How the results depend on the processing

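No alternative gave a called remote interval: the count was 0 with DESeq2, other scalings, a filter of 20 counts in every library, a replicate block, a threshold of 0.1 and each library left out. The number at an unadjusted p under 0.05, 156, was 55 with DESeq2 (2.67%, against 1.90% of all intervals), 52 of 1225 with the filter (4.24%, against 3.502%), 65 of 896 beyond 100 kb (7.25%, against 4.95%), 32 at p under 0.01 (1.55%, against 0.913%), and 108 to 232 with single libraries left out (5.24% to 11.3%, against 3.18% to 7.95%). The median log2 fold change was -0.023 to 0.091 with single libraries left out and below 0 without H2A.Z dKO replicate 2 (-0.015) or 3 (-0.023). Under the replicate block 152 intervals (7.38%, against 4.42% of all) had an unadjusted p under 0.05 and the median was 0.03. Same-numbered libraries did not deviate together (Pearson r across all intervals -0.10, -0.05 and -0.03), so the numbers were not taken as pairs, and the block changed no call.

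With single libraries left out, the difference in share was -0.0525 to 0.170 percentage points, remote minus promoter -0.046 to 0.12, remote minus near intergenic -0.00048 to 0.035, and the log2 RPKM ratios -0.25 to -0.23 (near) and -0.59 to -0.52 (promoter). These ratios kept their direction, and 5 libraries cannot give p under 0.0625. Leaving out the 81 repeated intervals, an alternative chosen after seeing the data, changed no direction or call.

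In the window of 50 bp on either side of the midpoint the shares with a motif were 2.38% for CTCF, 1.07% for MEF2, 14.3% for CAGCTG, 9.07% for TGANTCA, 10.9% for CCAAT, 3.93% for GGGCGG, 7.08% for GGAATG, 1.16% for CACGTG, 8.35% for TGACCT, 7.47% for GGAAGT and 0.970% for AAACCACA, since a shorter window holds fewer matches. Beyond 100 kb they were 3.12% for CTCF, 4.80% for GGGCGG, 1.67% for CACGTG and 2.23% for AAACCACA, and the cause was not tested.

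Peak_33221, near 0 in the report's fit, was at 0.0011 with median-of-ratios factors, 0.0092 with the filter and 0.023 with the block. With single libraries left out, the log2 fold change changed sign for Peak_7090 (-0.54 to 0.17), Peak_10749 (-0.20 to 0.19), Peak_11367 (-0.092 to 0.16), Peak_13599 (-0.35 to 0.071), Peak_19291 (-0.10 to 0.16), Peak_27247 (-0.14 to 0.041), Peak_32090 (-0.051 to 0.11), Peak_33221 (-0.20 to 0.23), Peak_34397 (-0.19 to 0.18) and Peak_36582 (-0.039 to 0.031). Depth limits single remote intervals, whose median was 36.3 counts in CTL libraries, and the GENCODE vM1 annotation sets which intervals count as remote.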
